A study of Mus musculus with 10 samples.

Results

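The genes described here are 9 transcription factors that mark or set the identity of blood vessel endothelium, out of 26504 genes listed in the count tables. The members are Sox7, Sox17 and Sox18, which together form the SoxF group, Erg and Fli1 of the ETS family, the nuclear receptor Nr2f2 (COUP-TFII), Gata2, Maf and Tal1. The rule takes them by name and uses no measured value, although the choice was made with earlier results of these data known, and all 9 had UMIs (unique molecular identifiers, counts of captured RNA molecules) in kept cells of all 10 libraries. They were compared between 4 endothelial types, between ages and between treatments.

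The data are single-cell RNA sequencing (scRNA-seq) of endothelial cells (ECs) from femur and tibia of Cdh5-mTnG reporter mice on the C57BL/6 strain, in which the endothelial gene Cdh5 drives a membrane tdTomato and a nuclear GFP. Bones were digested with collagenase, haematopoietic cells were depleted, and cells positive for both colours were sorted and run on the 10x Chromium 3′ system. The study covers juvenile bone (3 weeks, males and females), adult bone (12 weeks, females), aged bone (75 weeks, females), and bone of 12-week-old females that received parathyroid hormone (PTH) or alendronate, with 2 libraries per group. By the study's methods animals were pooled and the sequencing was done once per group, so that variation between mice cannot be read from the 2 libraries of a group. The adult libraries are the controls of all 4 comparisons, which therefore share them. All groups carry the reporter, and the juvenile group alone holds males, so age and sex cannot be told apart there.

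SoxF proteins bind DNA through an HMG box and are linked to VEGF and Notch signalling. Sox17 acts mainly in arteries, while Sox7 and Sox18 act more widely in vessel growth and Sox18 also at the start of lymphatic development. Nr2f2 acts on the venous side, where it restrains Notch signalling, and Maf (c-Maf) is a factor of sinusoidal endothelium best known from liver. Erg and Fli1 bind ETS sites and maintain pan-endothelial genes, and Gata2 and Tal1 are haematopoietic factors that also work in endothelium, often in common complexes with ETS factors.

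All 9 members are protein-coding genes of GRCm38 (mm10). By the GENCODE M21 annotation Sox7 (ENSMUSG00000063060) lies at chr14:63943673-63950732 on the plus strand, Sox17 (ENSMUSG00000025902) at chr1:4490931-4497354 on the minus strand and Sox18 (ENSMUSG00000046470) at chr2:181669836-181671640 on the minus strand. Erg (ENSMUSG00000040732) takes chr16:95359169-95586593 and Fli1 (ENSMUSG00000016087) takes chr9:32422204-32542861, both on the minus strand. Nr2f2 (ENSMUSG00000030551) lies at chr7:70351944-70366735, minus strand, and Gata2 (ENSMUSG00000015053) at chr6:88193891-88207032, plus strand. Maf (ENSMUSG00000055435) lies at chr8:115682942-115707794, minus strand, and Tal1 (ENSMUSG00000028717) at chr4:115056426-115071755, plus strand. Exons of Sox17, Nr2f2 and Maf overlap an antisense gene each (Gm37587, B130024G19Rik and Gm15655), and whether the counting used strand is not given in the sources used here. Of these only B130024G19Rik is listed in the tables, with 31 UMIs in bone marrow ECs beside 40162 of Nr2f2.

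The 250 bases before the start of Nr2f2 and of Gata2 are shown because Nr2f2 was highest in bmECs, where Gata2 was lowest, and because Erg and Fli1 read the ETS core that is marked in them. The sequences are from RefSeq on GRCm38.p6, read 5′ to 3′ on the strand of the gene, and capitals mark GGAA or, for the other strand, TTCC. The window of Nr2f2 is chr7:70366747-70366996 on the minus strand and holds 6 cores, and that of Gata2 is chr6:88193641-88193890 on the plus strand and holds 3.
Nr2f2: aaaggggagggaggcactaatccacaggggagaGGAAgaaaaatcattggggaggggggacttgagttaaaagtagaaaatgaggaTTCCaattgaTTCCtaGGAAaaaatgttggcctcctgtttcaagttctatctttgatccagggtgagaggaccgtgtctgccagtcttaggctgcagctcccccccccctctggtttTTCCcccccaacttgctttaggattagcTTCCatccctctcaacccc
Gata2: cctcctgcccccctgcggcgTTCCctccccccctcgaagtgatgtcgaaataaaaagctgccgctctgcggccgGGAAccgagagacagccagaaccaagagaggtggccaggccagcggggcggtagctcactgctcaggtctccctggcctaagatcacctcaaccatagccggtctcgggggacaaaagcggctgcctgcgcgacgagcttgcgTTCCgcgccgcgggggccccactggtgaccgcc
The core is short and was present in 93.4% of 32851 windows of this length, with a median of 3 matches, so its presence in these windows is a description and no sign of binding. Of the other members, a second Gata2 window held 1 core, the 2 windows of Tal1 held 4 and 3, and the 3 windows of Erg held 0, 4 and 2. GATA or its reverse complement TATC was found once in the Nr2f2 window and not in either Gata2 window, against 53.6% of all windows. ACAAT or ATTGT, a core of Sox sites, was in neither of the printed windows, against 27.7% of all windows.

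Cells with 500 to 6000 genes and under 25% mitochondrial UMIs were kept, which left 46283 of 47466 barcodes and 2191 to 7580 cells per library. Totals ran from 10653583 to 28419323 UMIs per library, with medians of 3075 to 5149 per cell, and pairs of libraries shared 3 to 88 barcodes. After cells of other types were removed, clusters of 43732 ECs were named from fixed markers, without using any member gene or listed factor to build the clusters. Sinusoidal bone marrow EC-like cells (bmECs, marked by Stab2) made up 36.5% of ECs, metaphyseal EC-like cells (mpECs, Ramp3 and Aplnr) 28.9%, arterial EC-like cells (aECs, Gja4) 16.1% and type R EC-like cells (rECs, Timp4 and Aqp7) 6.97%. The juvenile libraries held only 50 and 31 rECs. The 2 aged libraries stand apart from the others, with 1.52% and 1.53% of their UMIs on gene names that begin with U and occur in no other library, so that age and whatever sets these libraries apart cannot be told apart, and results that rest on them are given with that limit. One mpEC cluster of 2016 cells was shallow, at 0.347 of the median UMIs of its libraries, and was led by Gm10800, Gm10801 and Gm21738.

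Levels of the members were first compared between the 4 types, from sums of UMIs over the cells of a type in a library, scaled by the total of each sum and its TMM factor (CPM). For comparisons between groups the scaling was done anew within each type or over all ECs. The CPM of a library given there therefore differs from its value in the comparison between types. Levels in clusters, in removed cells and of summed markers were scaled by the total alone, without a TMM factor. Sox17 was the most arterial of the SoxF genes, Sox7 was highest in rECs, and Sox18 was high in all types. Nr2f2 and Maf ran the other way, with their highest levels in bmECs, and Gata2 was higher in rECs and aECs than in the other types. Erg and Tal1 differed little between types, and Fli1 was at 331 CPM in rECs and 212 or less in the other types. With edgeR's quasi-likelihood test of each type against the mean of the other 3, with calls at an absolute log2 difference over 1 and an adjusted p under 0.05, 16 of 36 tests of a member in a type were called. In bmECs 5 of 9 members were called where 17.6% of all 12796 genes tested were, in mpECs 3 of 9 against 8.17%, in aECs 3 of 9 against 11%, and in rECs 5 of 9 against 15.9%. The median absolute log2 difference of the members was 1.05 in bmECs and 1.18 in rECs, where that of all genes was 0.34 and 0.32.

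**Figure D1:**
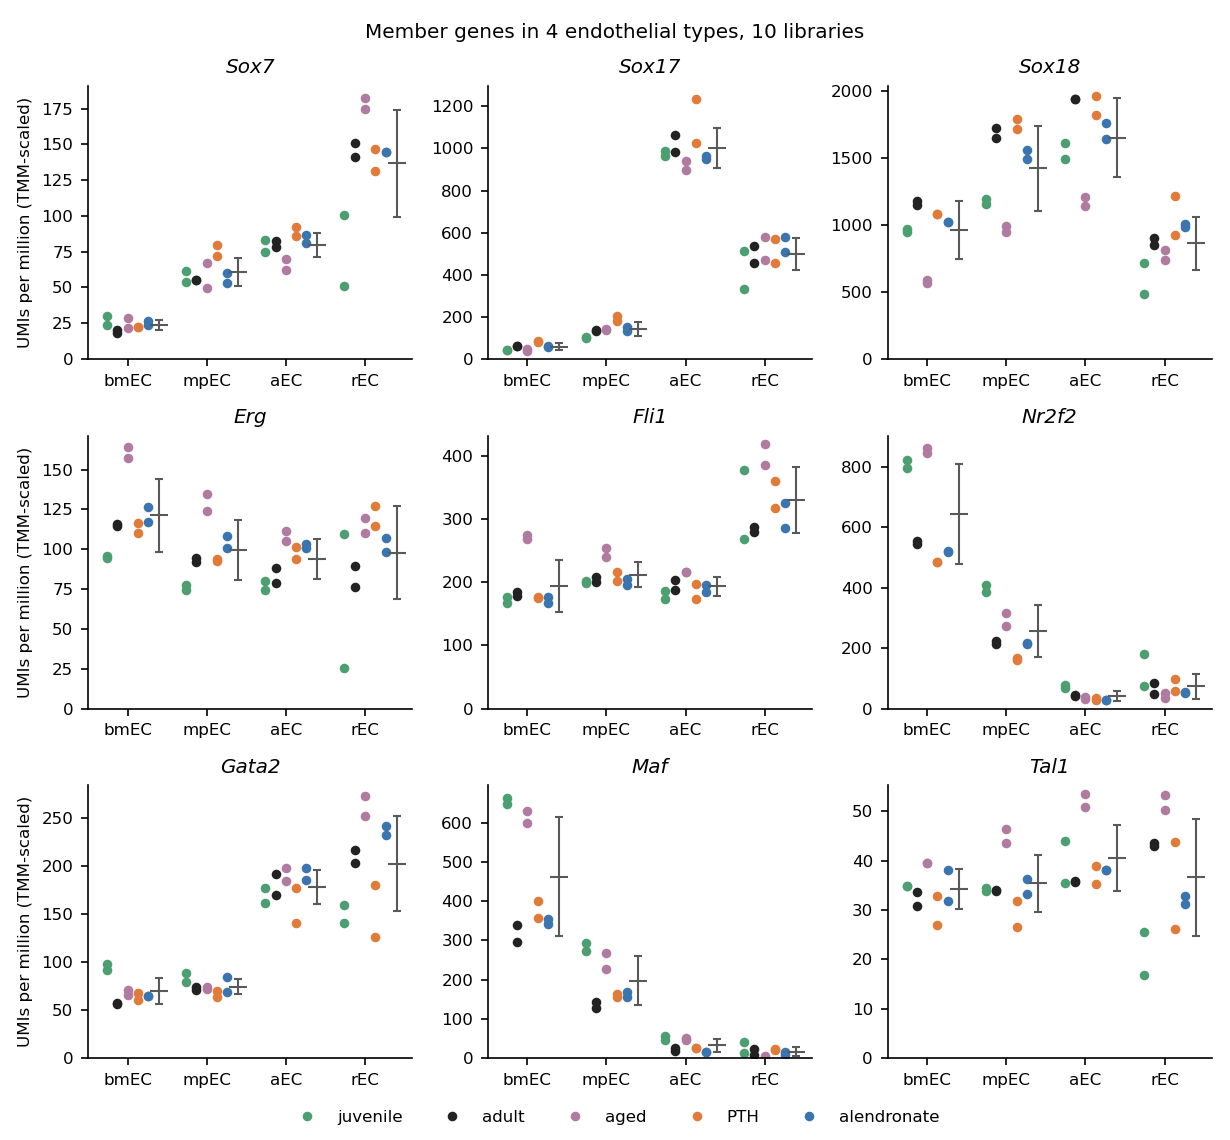
Level of each of the 9 genes (CPM) by endothelial type, with 1 point per library and a bar for the mean of the 10 libraries. Sox17 falls from a mean of 1001 in aECs to 58.1 in bmECs, and Nr2f2 and Maf fall from bmECs to aECs and rECs.

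Among the SoxF genes, Sox17 reached 1001 ± 95.0 CPM in aECs (SD, n = 10 libraries), with a lowest library at 896, a median of 974 and a highest at 1237. In rECs it was at 500 ± 76.1 (333, 511 and 580), in mpECs at 143 ± 31.2 (101, 137 and 204) and in bmECs at 58.1 ± 15.7 (39.4, 58.6 and 84.4). The ranges of the 4 types did not overlap anywhere in this order, and each step between neighbours passed the edgeR test, with log2 differences of 0.99 ± 0.09 (SE, as for all log2 differences), 1.85 ± 0.09 and 1.30 ± 0.09. From aECs to bmECs the mean level differed by 17.2-fold.

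Sox7 was highest in rECs at 137 ± 37.4 CPM, with 51.2 in the lowest library, a median of 145 and 183 in the highest. It was at 79.7 ± 8.71 in aECs (62.3, 82.0 and 91.9), at 60.8 ± 9.52 in mpECs (49.3, 57.7 and 79.7) and at 23.8 ± 3.69 in bmECs (17.9, 23.3 and 30.04). Only the bmEC range lay apart from its neighbour in the order, by a log2 difference of 1.34 ± 0.09 from mpECs (adjusted p = 7.75e-18, edgeR). The rEC and aEC ranges overlapped only through juvenile replicate 2, of 31 rECs, and the fitted difference between these types was 0.93 ± 0.10 (adjusted p = 1.88e-10, edgeR). Sox18 had the flattest profile of the group, with 1654 ± 297 CPM in aECs, 1424 ± 320 in mpECs, 962 ± 215 in bmECs and 865 ± 197 in rECs, and the ranges of all neighbours overlapped. Its step from mpECs to bmECs was 0.56 ± 0.08 on the log2 scale (adjusted p = 4.06e-08, edgeR), while bmECs and rECs differed by 0.09 ± 0.08 (adjusted p = 0.35). In no type did Sox18 pass the fold threshold, with log2 differences between -0.54 in rECs and 0.63 in aECs.

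Nr2f2, the venous factor, was at 644 ± 164 CPM in bmECs, with libraries from 484 to 862 and a median of 550. It was at 258 ± 86.2 in mpECs (159, 221 and 409), 73.9 ± 41.7 in rECs (33.5, 57.1 and 179) and 42.1 ± 17.7 in aECs (26.9, 35.7 and 79.1). The bmEC range lay above the mpEC range, whereas one rEC library reached into the mpEC range and the rEC and aEC ranges overlapped widely. The log2 difference of bmECs from the other types was 2.91 ± 0.08 and that of aECs -2.43 ± 0.11. Maf stood 28.6-fold higher in the highest than in the lowest type. It was at 463 ± 151 CPM in bmECs (296, 379 and 663), 198 ± 61.5 in mpECs (128, 166 and 294), 32.7 ± 15.7 in aECs (15.4, 26.6 and 56.5) and 16.2 ± 11.8 in rECs (1.59, 13.8 and 42.1). The bmEC, mpEC and aEC ranges did not overlap, while aECs and rECs did, with a step of 1.35 ± 0.24 (adjusted p = 1.14e-05, edgeR). Both genes thus had the order of bmECs above mpECs above the other types. The levels of Maf in aECs and rECs and of Nr2f2 in aECs come with shares of cells near background, given below, so the order of these low levels and the size of the fold of Maf are not read further.

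Gata2 was at 203 ± 49.6 CPM in rECs (126, 210 and 273) and 178 ± 17.6 in aECs (141, 181 and 198), above mpECs at 74.6 ± 7.41 (63.9, 73.0 and 88.6) and bmECs at 70.003 ± 13.98 (56.7, 65.6 and 98.0). The aEC and mpEC ranges were apart by a step of 1.27 ± 0.08, whereas mpECs and bmECs differed by 0.10 ± 0.08 (adjusted p = 0.258, edgeR). Its lower level in bmECs was -1.05 ± 0.07 against the other types, close to the fold threshold, and fell short of it without both aged libraries (-0.98) and with cells gated by the rule's markers in place of clusters (-0.999). Tal1, which acts with Gata2 in blood and early endothelium, stayed between 34.3 ± 4.03 CPM in bmECs and 40.6 ± 6.66 in aECs. No neighbouring types differed in Tal1, with steps of 0.11 ± 0.10, 0.09 ± 0.10 and 0.04 ± 0.06 on the log2 scale and adjusted p values of 0.44 to 0.608 (edgeR).

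Of the ETS factors, Erg was at 121 ± 23.1 CPM in bmECs and 93.8 ± 12.7 to 99.3 ± 18.8 in the other types. Its step from bmECs to mpECs was 0.29 ± 0.06 (adjusted p = 4.29e-05, edgeR), and the other 3 types had steps of 0.01 ± 0.08 and 0.07 ± 0.08. Fli1 was at 331 ± 52.1 CPM in rECs, with 269 in the lowest library, above every library of mpECs and aECs and overlapping the highest bmEC library at 275. In mpECs it was at 212 ± 19.6, in bmECs at 195 ± 41.2 and in aECs at 194 ± 15.2. Its rEC level stood 0.73 ± 0.06 above the other types (adjusted p = 7.96e-15, edgeR), below the fold threshold. The 2 closely related factors thus had their highest levels in different types, Erg in bmECs and Fli1 in rECs.

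In mpECs, 2 of the 3 calls sat near the fold threshold. Sox17 was at -1.13 ± 0.07 against the other types and Nr2f2 at 1.11 ± 0.09, and Maf was at 1.81 ± 0.10. With a cluster resolution of 0.8 the first 2 were at -0.91 and 0.98, and with clusters made without integration at -0.90 and 0.65, so these calls were lost and the direction was kept.

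The share of cells with a UMI of each gene was then compared after every cell had been thinned to 1000 UMIs, because depth differed between types, with medians of 4001 UMIs in bmECs, 3527 in mpECs, 3283 in aECs and 2060 in rECs. Shallower cells were left out, 81 bmECs, 683 mpECs, 258 aECs and 335 rECs. Sox17 was found in 55.5% ± 2.47 of aECs (SD over 10 libraries), 34.4% ± 3.39 of rECs, 12.6% ± 2.53 of mpECs and 5.07% ± 1.53 of bmECs. Before thinning these shares were 83.3% ± 4.85, 50.9% ± 6.83, 34.4% ± 7.43 and 20.03% ± 3.84, in the same order. The bmEC share was near that of the cells removed as erythroid (3.95% of 531) and haematopoietic (2.08% of 1441), in which free RNA can give UMIs, and is not read as expression. These removed cells had medians of 6629 and 5438 UMIs before thinning, when Sox17 was in 15.6% and 10.8% of them. By level, Sox17 was at 58.1 CPM in bmECs, above the 18.2 of erythroid and 18.0 of haematopoietic cells. Mesenchymal cells were at 50.4 CPM, and 4.48% of them had a Sox17 UMI after thinning. The share of bmECs with Sox7, 2.12% ± 0.50, was likewise near the erythroid share of 1.88%, but above the 0.42% of haematopoietic and 0% of mesenchymal cells. By level, Sox7 was at 23.8 CPM in bmECs, 7.51 in erythroid, 3.80 in haematopoietic and 5.60 in mesenchymal cells. At the other end of the order, Maf was found in 33.3% ± 8.96 of bmECs and 17.0% ± 4.87 of mpECs, and its 3.00% ± 1.57 in aECs and 1.66% ± 1.43 in rECs were near the 1.51% to 2.85% of erythroid and haematopoietic cells. Unthinned, Maf was in 73.3% ± 12.5, 42.7% ± 10.9, 9.85% ± 5.11 and 2.62% ± 1.498 of these types in turn. Nr2f2 was found in 42.9% ± 9.73 of bmECs, 19.8% ± 5.81 of mpECs and 6.55% ± 3.95 of rECs, and its 3.33% ± 0.84 in aECs was near the 2.22% and 2.45% of haematopoietic and erythroid cells. Unthinned, Nr2f2 was in 82.1% ± 8.52 of bmECs, 46.1% ± 9.68 of mpECs, 14.9% ± 11.02 of rECs and 12.0% ± 3.84 of aECs. These low shares are not read as expression.

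Sox18 was found in 52.6% to 74.4% of the cells of each type, against 7.56% to 8.66% of the haematopoietic, erythroid and mesenchymal cells, so its share in all 4 types was far above that background. Unthinned shares of Sox18 ran from 74.3% of rECs to 93.2% of aECs, and those of Gata2 from 25.4% of mpECs to 45.3% of aECs. Gata2 was in 18.4% ± 4.37 of rECs and 17.2% ± 1.53 of aECs, whereas the 6.27% ± 1.497 of bmECs and 7.58% ± 0.92 of mpECs were close to the haematopoietic share of 5.97%. Tal1 was in 3.27% to 4.17% of the endothelial types, near the 2.91% of haematopoietic cells, and in 11.1% of the erythroid cells, in which it is a known regulator. Fli1 was in 16.0% to 27.2% of the endothelial types against 8.88% of haematopoietic cells, some of which also express it. Nr2f2 was in 68.7% of 201 mesenchymal cells, more than in any endothelial type, and stromal cells are known to express it. The type with the highest share was the one with the highest CPM for 9 of 9 genes, both at 1000 and at 2000 UMIs per cell.

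**Figure D2:**
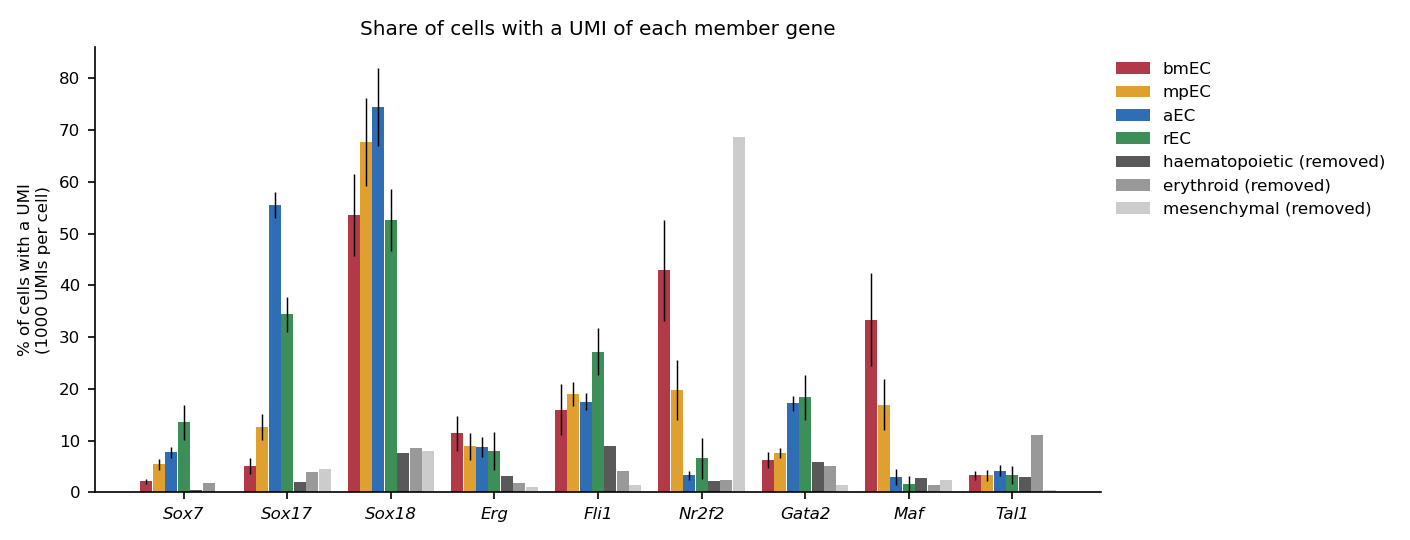
Share of cells with at least 1 UMI of each gene after thinning to 1000 UMIs per cell (percent), by endothelial type, with bars for the mean and lines for the SD over 10 libraries, beside the pooled shares of the cells removed as haematopoietic, erythroid and mesenchymal. Sox17 reaches 55.5% of aECs and only 5.07% of bmECs, which is near the removed cells.

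The 3 SoxF genes were also scored within single cells thinned to 2000 UMIs, which left out 1050 bmECs, 3112 mpECs, 1579 aECs and 1476 rECs as too shallow. UMIs of 2 of the 3 genes were found in 62.8% ± 3.49 of aECs, 40.0% ± 10.2 of rECs, 24.5% ± 4.10 of mpECs and 10.98% ± 1.82 of bmECs. All 3 were found in 9.80% ± 1.52 of aECs, 8.67% ± 3.92 of rECs, 2.01% ± 0.95 of mpECs and 0.225% ± 0.15 of bmECs. In bmECs and mpECs a single SoxF gene per cell was the commonest outcome, at 69.1% ± 5.31 and 64.2% ± 4.12. In rECs a single gene was as common as 2 genes, at 40.1% ± 9.16. Without thinning, 2 or 3 of the genes were found in 81.8% ± 4.86 of aECs, 51.5% ± 10.5 of rECs, 43.2% ± 7.48 of mpECs and 26.03% ± 5.44 of bmECs. The juvenile rEC shares at 2000 UMIs rest on 27 and 16 cells. Cells without any SoxF UMI made up 19.7% ± 5.66 of bmECs and 1.81% ± 1.13 of aECs. A cell without a UMI is not a cell without the RNA at this depth.

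**Figure D3:**
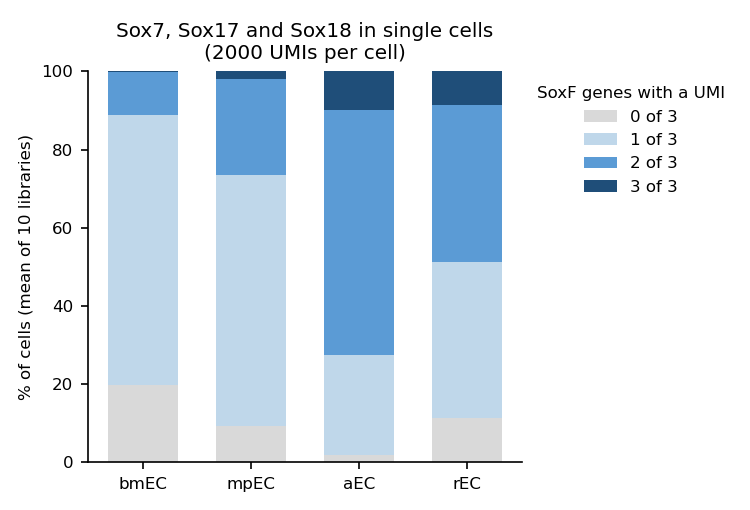
Share of cells (percent, mean over 10 libraries) with UMIs of 0, 1, 2 or 3 of Sox7, Sox17 and Sox18 after thinning to 2000 UMIs, by endothelial type. Most aECs hold 2 of the 3 genes (62.8%) and most bmECs hold 1 (69.1%).

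The clusters inside a type were compared as a description, since cells of 1 library fill all of them. Of the 2 aEC clusters, the cluster led by Gkn3, Mgp and Gja5 had 1209 ± 217 CPM of Sox17, 234 ± 28.1 of Gata2 and 27.0 ± 16.0 of Nr2f2, and the cluster led by Gja4, Car7 and Cxcl12 had 941 ± 116, 158 ± 20.5 and 49.8 ± 21.2. The libraries of Gata2 ran from 173 to 270 in the first and from 129 to 190 in the second, so the ranges overlapped. Fli1 ran the other way, at 145 ± 27.9 and 222 ± 22.7.

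Within mpECs, Nr2f2 spread most between clusters. It was at 432 ± 172 CPM in the cluster led by Ramp3, Rgs2 and Slco2a1, at 200 ± 69.1 in that led by Enpep, Ces2e and Ramp3, and at 108 ± 32.2 in that led by Kcne3, Kit and Apln, a tip cell gene. The Apln cluster also had the highest Sox7 of mpECs, 103 ± 18.4 against 52.1 ± 11.1 to 62.9 ± 21.8 in the other clusters, and the lowest Gata2, 48.7 ± 8.58. The 5 bmEC clusters stayed close to each other, with Sox17 between 51.3 and 58.9 CPM and Maf between 343 and 478. Proliferating ECs (552 cells) had 104 ± 49.8 of Sox17, 215 ± 77.3 of Nr2f2 and 121 ± 36.5 of Maf, between bmECs and aECs in each.

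A cluster of 1928 cells that was led by Tagln, Vwf and Cpe could not be named from the markers, and its levels of Nr2f2 and Maf did not go together as in the named types. Its Nr2f2 was at 319 ± 101 CPM, in the range of mpECs, while its Maf was at 19.7 ± 17.5, in the range of rECs and aECs. The cells removed as mesenchymal also had high Nr2f2 (1546 CPM) and low Maf (17.7), the cluster's second highest marker score was the mesenchymal one (0.668, against 0.836 for rECs), and the part of such cells in its levels was not tested. Its Sox7 was at 85.3 ± 23.8 and its Sox17 at 157 ± 21.4. The named types had both genes high (bmECs, mpECs) or both low (aECs, rECs). A second cluster without a name, of 2507 cells with bmEC markers and haemoglobin genes, had bmEC-like levels of Nr2f2 (545 ± 204), Maf (462 ± 133) and Sox17 (60.1 ± 21.7).

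**Figure D4:**
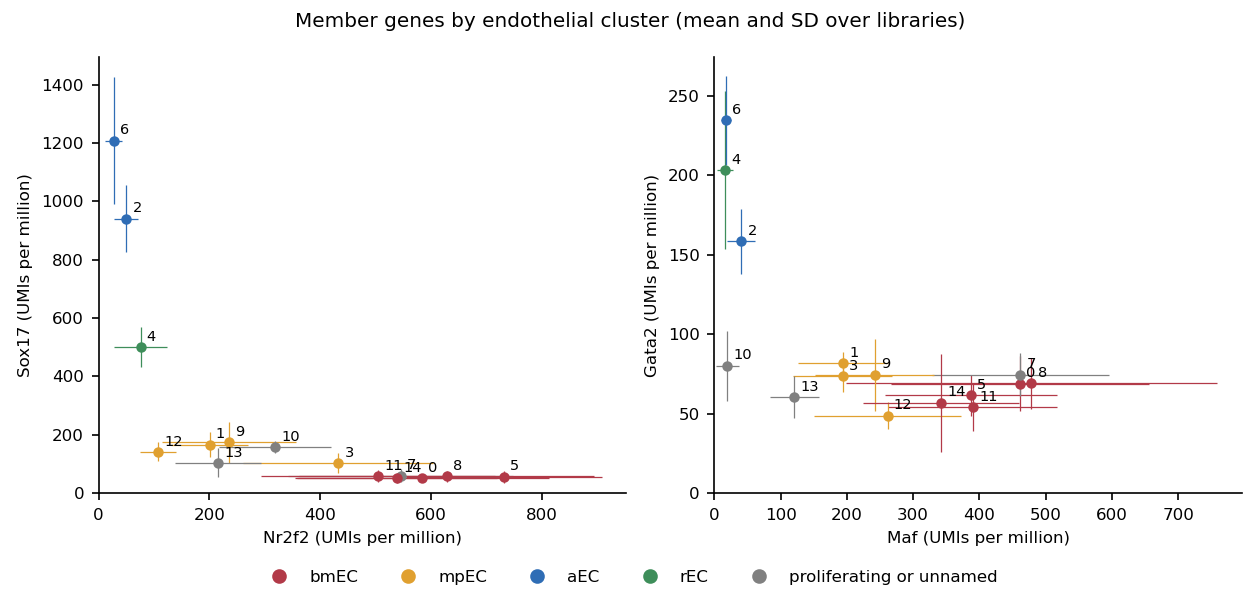
Mean level of Sox17 against Nr2f2 (left) and of Gata2 against Maf (right) in each endothelial cluster (CPM, linear axes), with lines for the SD over libraries, cluster numbers beside the points and colours for the types. The Tagln, Vwf and Cpe cluster (10) sits at 319 of Nr2f2 but 19.7 of Maf.

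Over the 40 sums of 4 types and 10 libraries, the log2 levels of the members were set against each other as a description. The sums of a library share its depth, and the types differ in level. Sox17 ran opposite to Nr2f2 (Pearson r = -0.97) and with Gata2 (r = 0.86). Maf ran with Nr2f2 (r = 0.90) and opposite to Gata2 (r = -0.90). Erg and Fli1 had a weak relation to each other (r = 0.12), and Tal1 had an r of at most 0.28 with any member.

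Among 6673 genes with a mean of at least 20 CPM, the genes most like Sox17 over these sums were Msx1, Pdgfd and Ace (r = 0.98 for each), and those most like Sox7 were Myadm, Sparcl1 and Palm (0.95, 0.94 and 0.94). Sox18 was most like Prdx4, Selm and Glod4 (0.94, 0.92 and 0.90). Nr2f2 was most like Abhd17b, Gpr97 and Ctnnal1 (0.97, 0.94 and 0.94), and Maf was most like Mgat4b, Cdr2l and Srgap1 (0.96, 0.95 and 0.95). Gata2 was most like Dbndd2, Prdm16 and Rftn1 (0.93 for each). Genes among those most like Erg were Birc2 and Ap1g1 (0.91 and 0.90), and Fli1 was most like Rin3, Trib2 and Igf2r (0.91 for each). Tal1 had the weakest likeness of all, with Dot1l, Mctp1 and Foxk1 (0.82, 0.79 and 0.79).

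Other endothelial transcription factors were taken from a list of 47 genes, of which 43 were tested between types. In bmECs 6 were higher and 12 lower, where 17.6% of all genes were called in either direction, in mpECs 7 and 8 (8.17%), in aECs 10 and 4 (11%), and in rECs 9 and 7 (15.9%), with a median log2 difference of -0.25 in bmECs (0.02 over all genes) and of 0.02 in aECs (-0.02). The largest difference was that of Meox2, a homeobox factor, with 260 ± 49.4 CPM in rECs and at most 8.92 ± 2.81 in the other types (log2 difference 6.59 ± 0.13). Tcf15, which with Meox2 has been described as a pair in heart capillaries, was at 910 ± 255 in rECs, 207 ± 91.0 in aECs, 54.8 ± 27.4 in mpECs and 8.67 ± 4.50 in bmECs. The T-box factor Tbx3 was at 127 ± 97.8 in rECs and 2.46 ± 2.48 in bmECs. The Notch target Hey1 was at 213 ± 49.3 in aECs, 141 ± 56.3 in rECs and 2.89 ± 2.86 in bmECs, so it shared the aEC and rEC side with Sox17 and Gata2. Hey2 was at 6.75 ± 1.70 in aECs and at most 0.317 ± 0.56 elsewhere.

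Of 8 tested arterial genes that are not transcription factors, 5 were higher in aECs (Alpl, Cxcr4, Dll4, Jag1 and Notch4), where 11% of all genes were called in either direction, and 5 lower in bmECs (17.6%), with medians of 1.37 and -1.18 on the log2 scale where all genes had -0.02 and 0.02. Notch4 was at 249 ± 17.9 CPM in aECs and 58.0 ± 6.20 in bmECs. The chemokine receptor Cxcr4 was at 46.0 ± 21.3 in aECs and 2.20 ± 1.51 in bmECs. Jag1, a Notch ligand, was at 264 ± 107 in aECs and 48.3 ± 5.86 in mpECs, and the phosphatase Alpl at 150 ± 66.9 in rECs and 1.43 ± 1.35 in bmECs. Of 7 venous genes, 3 were higher in bmECs (Ackr1, listed as Darc, Flt4 and Selp) and Vwf was lower, and in aECs 4 were lower and Vwf was higher, against the same shares of all genes. Ackr1 was at 1523 ± 431 CPM in bmECs and 71.3 ± 39.8 in aECs, Selp at 348 ± 66.6 and 17.4 ± 9.92, and Flt4 at 607 ± 96.7 and 87.0 ± 11.5. Vwf was at 17.7 ± 8.55 in bmECs and 84.5 ± 45.1 in aECs.

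Juvenile bone was compared with adult bone within each type. The sinusoidal genes Maf and Nr2f2 were higher in juvenile bmECs and mpECs, and also in aECs, where both were near background by their share of cells, and Sox18 was lower in the same 3 types. Sox17 and Erg were lower in bmECs and mpECs, and Gata2 and Sox7 were higher in bmECs. In all, 15 of 36 tests of a member in a type were called by edgeR at an adjusted p under 0.05, 8 up and 7 down. In bmECs 7 of 9 members were called where 37.7% of all genes were, in mpECs 5 against 29.6%, in aECs 3 against 16.1% and in rECs 0 against 2.78%. The members' median absolute log2 difference was 0.48 in bmECs, against 0.25 for all genes.

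Maf was at 618 and 631 CPM in the 2 juvenile bmEC libraries and at 321 and 280 in the adult ones. In mpECs the values were 281 and 301 against 147 and 131, and in aECs 48.2 and 58.2 against 18.2 and 27.6. The juvenile libraries were above both adult libraries in each of these types, by 1.05 ± 0.05, 1.07 ± 0.07 and 1.23 ± 0.21 on the log2 scale (adjusted p = 2.94e-20, 1.49e-16 and 2.89e-05, edgeR). Nr2f2 was at 786 and 759 in juvenile against 516 and 525 in adult bmECs, at 419 and 395 against 218 and 227 in mpECs, and at 81.7 and 70.1 against 45.8 and 41.9 in aECs. Its rise was 0.57 ± 0.04, 0.87 ± 0.06 and 0.79 ± 0.16 (adjusted p = 7.19e-16, 1.38e-15 and 3.84e-04, edgeR). In mpECs 46.3% of juvenile cells lay in the cluster led by Ramp3, Rgs2 and Slco2a1, which had the highest Nr2f2, against 29.0% of adult cells, and the part of this mix in the rise was not tested. Without integration the mpEC difference of Nr2f2 was 0.08 (adjusted p = 0.431, edgeR), and its aEC difference did not pass either (0.52, adjusted p = 0.123). With cells gated by markers neither aEC rise passed, with Maf at 1.31 (adjusted p = 0.214, edgeR) and Nr2f2 at 0.50 (0.535).

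Sox18 was at 903 and 925 CPM in juvenile bmECs against 1118 and 1084 in adult ones, at 1185 and 1221 against 1760 and 1685 in mpECs, and at 1547 and 1668 against 1972 and 1982 in aECs. The groups did not overlap in any of the 3 types, and the falls were -0.27 ± 0.03, -0.52 ± 0.05 and -0.30 ± 0.05 on the log2 scale. Sox17 was at 42.5 and 40.7 in juvenile bmECs against 57.8 in both adult libraries (-0.48 ± 0.08), near background by its share of cells, and at 103 and 106 against 137 and 139 in mpECs (-0.40 ± 0.08). The mpEC fall of Sox17 turned into a rise of 0.30 (adjusted p = 0.00211, edgeR) when clusters were made without integration, so its direction depends on which cells are counted as mpECs. In aECs, where Sox17 is highest, the juvenile libraries were at 993 and 1017 and the adult ones at 1081 and 1003, and the difference of -0.05 did not pass (adjusted p = 0.661, edgeR).

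Gata2 was at 87.9 and 93.3 CPM in juvenile bmECs and 53.8 and 54.2 in adult ones, a rise of 0.75 ± 0.07 (adjusted p = 1.54e-11, edgeR), whereas in aECs it was at 167 and 183 against 194 and 174. The share of bmECs with Gata2 was close to that of haematopoietic cells, which also express it. Sox7 was at 22.9 and 28.6 in juvenile against 19.2 and 16.9 in adult bmECs (0.51 ± 0.12). Its share of bmECs was near the erythroid share described above, and its call was lost without juvenile replicate 2. Erg was at 90.0 and 90.9 against 109 and 108 in bmECs (-0.27 ± 0.06) and at 76.3 and 79.4 against 93.9 and 96.3 in mpECs (-0.29 ± 0.08). The mpEC fall of Erg did not pass with DESeq2 (-0.28, adjusted p = 0.059), without juvenile replicate 1 (-0.26, 0.0571) or with gated cells (-0.33, 0.106), though its size stayed similar. Fli1 and Tal1 passed in no type. Summed haematopoietic markers (16 genes) ran from 21.3 to 27.4 CPM in juvenile bmECs and from 63.5 to 65.3 in adult ones, with all 16 detected in both, and Ptprc was at 0 in juvenile mpECs and aECs. Erythroid markers (6 genes, all detected) summed to 374 to 422 in juvenile bmECs against 199 to 214 in adult ones. Mesenchymal markers (6 genes, all detected), from cells with high Nr2f2, summed to 27.6 to 32.1 in juvenile bmECs against 16.6 to 19.2 in adult ones, and to 12.3 to 19.4 against 5.56 to 7.83 in mpECs. The part of these cells in the differences was not tested.

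**Figure D5:**
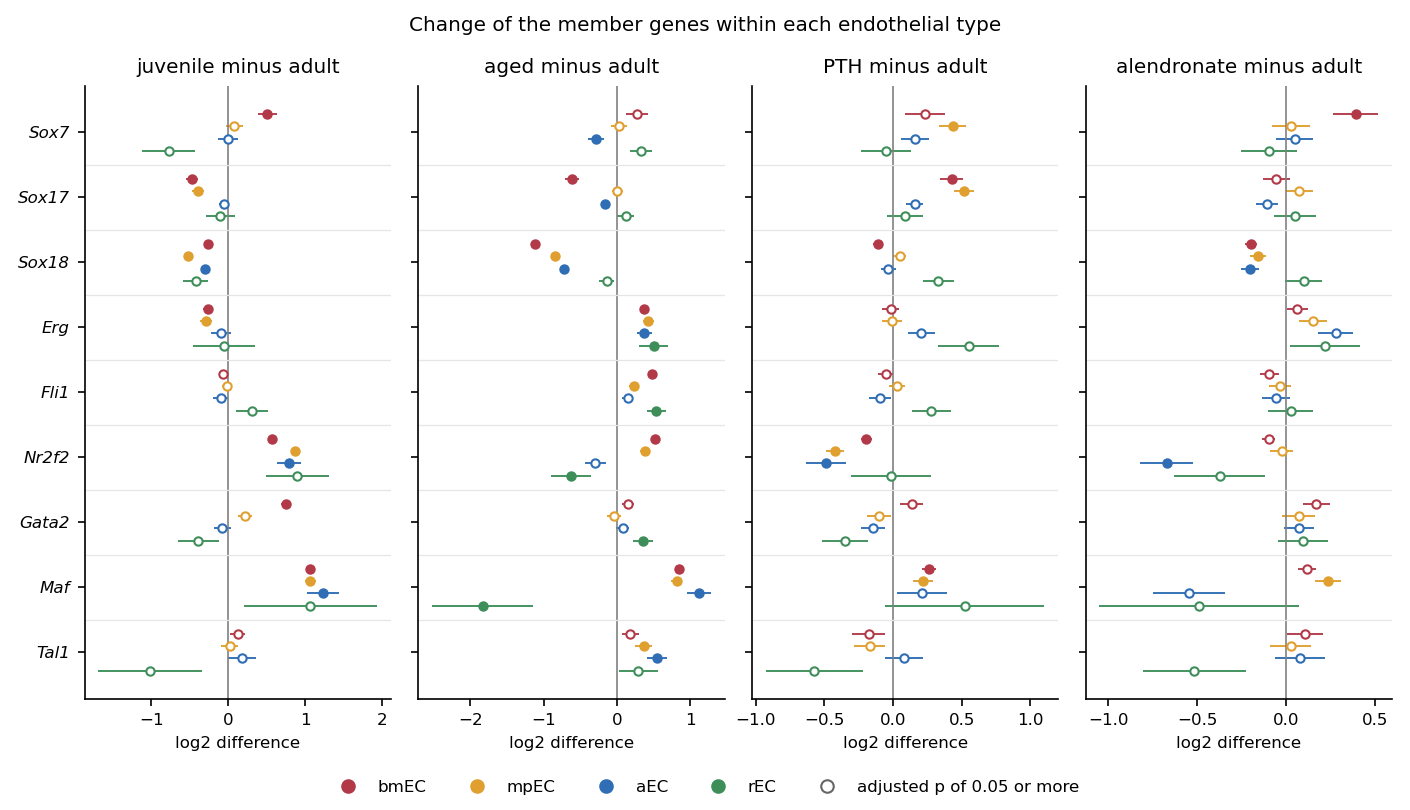
Log2 difference of each gene from adult within each endothelial type (points, with lines for the SE), for juvenile, aged, PTH and alendronate libraries, each with its own axis range. Filled points passed an adjusted p under 0.05 (edgeR). Maf and Nr2f2 lie above 0 in juvenile bmECs, mpECs and aECs, and Sox18 lies below 0 in the same types in juvenile, aged and alendronate libraries.

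Aged bone was compared with adult bone in the same way, with the limit that both aged libraries stand apart. Sox18 was lower in bmECs, mpECs and aECs, Erg was higher in all 4 types, and Maf was higher in bmECs and mpECs, and by its call also in aECs and lower in rECs, where its levels were low. In all, 23 of 36 tests were called, 15 up and 8 down, in a background in which most genes were called. In bmECs 6 of 9 members were called against 65.5% of all genes, in mpECs 6 against 66.1%, in aECs 6 against 58.9% and in rECs 5 against 46.2%, so the members were called about as often as other genes. The members' median absolute log2 difference in bmECs was 0.47, below the 0.63 of all genes.

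Sox18 was at 497 and 514 CPM in aged bmECs against 1118 and 1084 in adult ones, at 940 and 979 against 1760 and 1685 in mpECs, and at 1230 and 1161 against 1972 and 1982 in aECs. The falls were -1.12 ± 0.04, -0.84 ± 0.05 and -0.73 ± 0.05 on the log2 scale, with adjusted p values from 2.32e-25 to 3.45e-14 (edgeR), and the groups lay far apart in each type. In rECs the difference was -0.14 ± 0.11 (adjusted p = 0.28, edgeR). Sox17 was at 41.1 and 34.4 against 57.8 in both adult libraries of bmECs (-0.61 ± 0.10), near background by its share of cells, and at 957 and 912 against 1081 and 1003 in aECs (-0.16 ± 0.06). The aEC fall did not pass with DESeq2 (adjusted p = 0.202) or its size factors (0.0718, edgeR). It also did not pass at resolutions of 0.3 (0.0663) and 0.8 (0.101) or with gated cells (0.0653). It was -0.11 without adult replicate 1 and -0.12 without aged replicate 2. Sox7 was at 63.4 and 71.0 against 84.0 and 79.7 in aECs (-0.29 ± 0.11), and likewise did not pass with DESeq2 (adjusted p = 0.18). Its fall also did not pass at a resolution of 0.8 (-0.23, adjusted p = 0.0617, edgeR) or with gated cells (-0.20, 0.323). It was -0.25 without adult replicate 1 and -0.20 without aged replicate 1.

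Maf was at 552 and 524 CPM in aged bmECs against 321 and 280 (0.84 ± 0.05) and at 265 and 224 in mpECs against 147 and 131 (0.81 ± 0.07). In aECs it was at 51.7 and 46.8 against 18.2 and 27.6 (1.11 ± 0.16), where its mean share of cells over the 10 libraries was near background. Removed haematopoietic, erythroid and mesenchymal cells had 20.3, 12.8 and 17.7 CPM of Maf. The aEC rise was also called with gated cells (2.50, adjusted p = 3.03e-08, edgeR). In rECs Maf was at 6.86 and 1.66 against 8.07 and 24.3, from 8 and 2 UMIs in aged and 4 and 10 in adult libraries. The fitted change of -1.83 ± 0.69 there (adjusted p = 0.0244, edgeR) rests on these few UMIs, with 1 adult library close to the aged ones, and did not pass with DESeq2 (adjusted p = 0.0585). Nr2f2 was at 743 and 752 against 516 and 525 in bmECs (0.52 ± 0.04) and at 313 and 267 against 218 and 227 in mpECs (0.38 ± 0.06). Summed lymphatic markers (Lyve1, Pdpn, Ccl21a, Mmrn1 and Reln) were also higher in aged bmECs, at 338 to 365 CPM against 147 to 150.04 in adult ones, with Pdpn and Reln at 0 in both, but not in mpECs, at 30.3 to 47.8 against 46.3 to 47.8, and mesenchymal markers (5 of 6 detected in aged libraries, with Lum at 0) summed to 26.3 to 33.9 against 16.6 to 19.2 in bmECs and 15.2 to 15.8 against 5.56 to 7.83 in mpECs. The part of either in the rises of Maf and Nr2f2 was not tested. In rECs Nr2f2 was at 52.3 and 34.9 against 50.4 and 87.6, groups that overlap, with a fitted change of -0.63 ± 0.27 (adjusted p = 0.0492, edgeR). This change was -0.21 without adult replicate 2 and -0.35 without aged replicate 2, and passed in neither case. It changed sign to 1.53 (adjusted p = 0.156, edgeR) with cells gated by markers.

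Erg was at 138 and 144 CPM in aged bmECs against 109 and 108, 122 and 133 in mpECs against 93.9 and 96.3, 114 and 107 in aECs against 89.5 and 80.6, and 125 and 115 in rECs against 90.8 and 77.9. The rises were 0.37 to 0.50 on the log2 scale, and the aged libraries were above the adult ones in each type. Fli1 was at 242 and 235 against 175 and 169 in bmECs (0.47 ± 0.05), at 237 and 250 against 204 and 212 in mpECs (0.23 ± 0.06), and at 438 and 401 against 293 and 285 in rECs (0.54 ± 0.12). The mpEC difference of Fli1 was 0.13 without the filter on low counts (adjusted p = 0.123, edgeR) and 0.05 with gated cells (0.713), and its rEC rise did not pass with gated cells (0.13). Tal1 rose in mpECs (0.36 ± 0.11) and aECs (0.54 ± 0.13), and Gata2 in rECs (0.36 ± 0.14). The mpEC rise of Tal1 did not pass without aged replicate 2 (0.31, adjusted p = 0.0537, edgeR) or without the filter on low counts (0.26, 0.0701), and the share of cells with Tal1 was near that of haematopoietic cells. Erythroid markers, from cells in which Tal1 is high, summed to 358 to 478 CPM in aged mpECs against 239 to 264 in adult ones, and to 335 to 349 against 171 to 257 in aECs. In rECs the rises of Erg and Gata2 did not pass with DESeq2, at 0.55 (adjusted p = 0.0885) and 0.40 (0.0762), although neither was smaller. That of Erg did not pass without adult replicate 1 (0.61), adult replicate 2 (0.40) or aged replicate 1 (0.44). Nor did Erg pass there without integration (0.33, adjusted p = 0.154, edgeR), with stricter cell filters (0.41, 0.139) or with gated cells (0.30, 0.709). Gata2 in rECs did not pass without adult replicate 1 (0.39), adult replicate 2 (0.32) or aged replicate 2 (0.31). Nor did Gata2 pass there without integration (0.24, adjusted p = 0.146, edgeR), with stricter cell filters (0.32, 0.0826) or with gated cells (0.13, 0.778). Haematopoietic markers summed to 90.7 to 190 CPM over the aged types and 55.6 to 86.1 over the adult ones, with at least 12 of the 16 markers detected in every type. Fli1, Tal1 and Gata2 are also expressed by haematopoietic cells, and the part of haematopoietic and erythroid cells in the rises was not tested. Of the aged bmECs, 34.5% lay in the cluster led by Ptx3, Ctgf and Cdkl1, against 8.43% of adult ones. Of the aged mpECs, 16.4% lay in the cluster led by Ramp3, Rgs2 and Slco2a1, against 29.0% of adult ones, and 22.3% in the shallow cluster, against 9.55%.

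PTH, an anabolic bone treatment given daily, was compared with the adult libraries, for which the labels name no treatment. Sox17 was higher in mpECs and Nr2f2 was lower in bmECs and mpECs. Sox17 was also higher in bmECs, and Nr2f2 was lower in aECs, where it was near background by its share of cells. In all, 9 of 36 tests were called, 5 up and 4 down. In bmECs 4 of 9 members were called where 9.19% of all genes were, in mpECs 4 against 17.7%, in aECs 1 against 7.88% and in rECs 0 against 2.7%. The differences were small, with a median absolute log2 difference of the members of 0.18 in bmECs and 0.17 in mpECs, near the 0.15 and 0.18 of all genes.

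Sox17 was at 182 and 208 CPM in mpECs of PTH-treated mice against 137 and 139 in adult ones, a rise of 0.52 ± 0.07 (adjusted p = 1.32e-07, edgeR). In bmECs it was at 79.7 and 76.8 against 57.8 in both adult libraries (0.43 ± 0.08), with Sox17 in 8.14% and 6.71% of thinned PTH cells against 5.35% and 5.56% of adult ones and 2.08% to 4.48% of removed cells, and the call was lost without integration (adjusted p = 0.0524, edgeR). In aECs it was at 1051 and 1259 against 1081 and 1003, which did not pass (adjusted p = 0.114). Sox7 was at 80.8 and 73.5 against 56.4 and 56.2 in mpECs (0.43 ± 0.10). Nr2f2 was at 171 and 162 against 218 and 227 in mpECs (-0.42 ± 0.07), at 457 and 453 against 516 and 525 in bmECs (-0.20 ± 0.04), and at 35.1 and 29.5 against 45.8 and 41.9 in aECs (-0.49 ± 0.15). In mpECs both PTH libraries were thus above both adult libraries in Sox17 and Sox7 and below them in Nr2f2. The Apln cluster, which had the highest Sox7 of mpECs, held 11.3% of PTH and 8.56% of adult mpECs, and the shallow cluster held 18.7% and 9.55%. The shallow share was unlike in the PTH libraries, with 28 of 767 mpECs in replicate 1 and 652 of 2870 in replicate 2. The adult libraries had 170 of 1439 and 100 of 1388. The part of this mix was not tested.

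Maf was at 338 and 375 CPM against 321 and 280 in bmECs (0.26 ± 0.05) and at 166 and 159 against 147 and 131 in mpECs (0.22 ± 0.07), and Sox18 was at 1026 and 1015 against 1118 and 1084 in bmECs (-0.11 ± 0.03). With DESeq2 the PTH differences of Nr2f2 in aECs (adjusted p = 0.357), Maf in mpECs (0.167) and Sox18 in bmECs (0.308) did not pass. Maf in mpECs also did not pass without the shallow mpEC cluster (0.0579, edgeR) or without integration (0.14, 0.154). Its rise there was 0.14 without adult replicate 2, 0.20 without PTH replicate 1 and 0.26 without PTH replicate 2. With cells gated by the rule's markers, which keeps fewer cells, only the Maf rise in bmECs was called (0.36, adjusted p = 0.000953, edgeR). Without the gate that rise was 0.16 without PTH replicate 2 and 0.17 without adult replicate 2, and passed in neither case. In gated mpECs the rise of Sox17 was 0.24 (adjusted p = 0.285, edgeR), that of Sox7 was 0.35 (0.206), and the difference of Nr2f2 was -0.02. PTH replicate 1 held the fewest cells of all libraries, and without PTH replicate 2 or without adult replicate 2 the calls went from 9 to 6. Haematopoietic markers summed to 28.7 to 45.1 CPM in the PTH libraries, below the adult ones, with 10 of 16 markers detected in aECs and rECs and Ptprc at 0 in both, and mesenchymal markers to 12.6 to 37.0 against 5.56 to 19.2. The removed mesenchymal cells had high Nr2f2. The part of either in the differences was not tested.

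Alendronate, an inhibitor of bone resorption given every other day, gave the fewest calls. Sox18 was lower in bmECs, mpECs and aECs, and 6 of 36 tests were called in all, 2 up and 4 down. In bmECs 2 of 9 members were called against 18% of all genes, in mpECs 2 against 13.1%, in aECs 2 against 8.06% and in rECs 0 against 2.43%. Sox18 was at 964 and 959 CPM against 1118 and 1084 in bmECs (-0.20 ± 0.03), at 1577 and 1516 against 1760 and 1685 in mpECs (-0.16 ± 0.05), and at 1780 and 1660 against 1972 and 1982 in aECs (-0.20 ± 0.05). The treated libraries were below both adult libraries in each type. Nr2f2 was at 27.2 and 27.9 against 45.8 and 41.9 in aECs (-0.67 ± 0.15), at levels near background by the share of cells. Sox7 was at 24.9 and 22.5 against 19.2 and 16.9 in bmECs (0.39 ± 0.13), where its share of cells was near that of erythroid cells. This rise did not pass with gated cells (0.15, adjusted p = 0.641, edgeR) or without integration (0.31, 0.0629). It was 0.31 without adult replicate 2 and 0.32 without alendronate replicate 1. Maf was at 158 and 170 against 147 and 131 in mpECs (0.24 ± 0.07), which turned to -0.04 with gated cells. The shallow cluster held 24.8% of alendronate mpECs and 9.55% of adult ones, and without it the rise of Maf was 0.21 and did not pass (adjusted p = 0.0667, edgeR). With DESeq2 only Sox18 in bmECs was called, and without adult replicate 2 or without alendronate replicate 2 there were 3 calls. Haematopoietic markers summed to 87.1 to 121 CPM, above the adult range, and their part was not tested.

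The UMIs of all ECs of a library were also summed, so that both the mix of types and the levels within types enter, and their parts were not separated. Of the 9 members, 6 were called in juvenile against 43.1% of all genes, 8 in aged against 73.8%, 5 in PTH against 29.6% and 5 in alendronate against 27.9%. Sox17 was at 123 and 127 CPM in juvenile and 234 and 219 in adult libraries (-0.86 ± 0.06), at 309 and 301 in aged (0.43 ± 0.06), 333 and 398 in PTH (0.70 ± 0.06) and 277 and 286 in alendronate libraries (0.31 ± 0.06). The aEC share of ECs was 6.26% and 6.66% in juvenile, 12.8% and 13.0% in adult, 26.6% and 27.6% in aged, 19.2% and 20.6% in PTH and 17.9% and 18.3% in alendronate libraries. Within types, aged Sox17 was lower in bmECs, near background there by its share of cells, and in aECs, where the call depended on the settings. In mpECs and rECs its change did not pass (0.005, adjusted p = 0.956, and 0.12, 0.441, edgeR). Over all ECs aged Sox17 was higher than adult Sox17. Nr2f2 was at 615 and 589 in juvenile against 343 and 354 in adult libraries (0.79 ± 0.04), and was lower in PTH (-0.64 ± 0.04) and alendronate libraries (-0.26 ± 0.04). Sox7 was higher in aged (0.37 ± 0.05), PTH (0.62 ± 0.05) and alendronate libraries (0.38 ± 0.05), in which the rEC share was 14.7% and 15.0%, 2.07% and 5.25%, and 11.9% and 12.2%, against 4.45% and 5.08% in adult ones.

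Whether a change differed between types was tested as an interaction, the change in 1 type against the mean change in the other 3. For juvenile bone, 2 of 9 members differed in bmECs, against 3.05% of all genes, and none in mpECs, aECs or rECs, against 3.58%, 1.49% and 1.34%. Gata2 rose by 0.85 ± 0.12 more in bmECs than in the other types (adjusted p = 9.09e-08, edgeR) and Sox7 by 0.76 ± 0.18 (adjusted p = 0.0042). The mean of the other types includes juvenile rECs, with only 19 and 11 UMIs of Gata2 and 12 and 4 of Sox7. In bmECs the share of cells with Gata2 was near that of haematopoietic cells, which also express it. That of Sox7 was near the share of erythroid cells. For aged bone, 5 members differed in bmECs against 16.9% of genes, 2 in mpECs against 3.39%, 3 in aECs against 6.53% and 3 in rECs against 4.57%. The fall of Sox18 in aged bone was deeper in bmECs (interaction -0.47 ± 0.06) and shallower in rECs (0.66 ± 0.08) than in the other types. Sox17 and Nr2f2 also differed in bmECs, by -0.51 ± 0.11 and 0.79 ± 0.11. Maf differed in all 4 types, from 1.17 ± 0.27 in aECs to -2.87 ± 0.63 in rECs, where it had few UMIs. Its aged change within types was 0.84 in bmECs, 0.81 in mpECs, 1.11 in aECs and -1.83 in rECs. The Maf values of bmECs, mpECs and aECs, and that of Nr2f2 in bmECs, are each set against a mean that includes rECs. They are therefore not independent of the rEC values. For PTH, 1 member differed in bmECs against 1.91% of genes, 1 in mpECs against 2.3%, none in aECs against 1.02% and 1 in rECs against 1.53%. Sox17 rose by 0.29 ± 0.08 more in mpECs (adjusted p = 0.0457, edgeR), and the change of Sox18 was lower in bmECs (-0.24 ± 0.06) and higher in rECs (0.40 ± 0.09) than in the other types. For alendronate, the only member that differed was Sox18 in rECs, against 1.12% of genes there and 1.28%, 0.634% and 0.853% in bmECs, mpECs and aECs. Its change in rECs stood 0.34 ± 0.08 above that in the other types (adjusted p = 0.00449, edgeR). Within rECs the change of Sox18 did not itself pass under alendronate (0.10 ± 0.10, adjusted p = 0.755, edgeR) or PTH (0.33 ± 0.11, 0.103).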

How the data were processed

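The deposited files are 10 UMI count tables in long form, with gene, cell and count as columns and 1 table per library. By their methods the authors made these counts with UMI-tools 1.1.2, STAR 2.7.10a on mm10 and Subread featureCounts 2.0.3, and deposited them without normalization. The annotation release and strand setting are not given in the sources used here. Libraries were grouped by the sample labels.

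The members and all gene lists were chosen with earlier results of these data known. Cells with 500 to 6000 genes and under 25% mt- UMIs were kept, 276 genes whose names begin with U were left out, and cells were integrated with Seurat 5.3.0 (2000 variable features without members and listed genes, 30 principal components, Louvain resolution 0.5). Clusters led by markers of other cells were removed, and the others were named if at least 3 fixed markers were raised and their mean score was at least 0.3 and at least 0.3 above that of the next type. Doublets were not removed in the results given first, and 1832 ECs with the highest Scrublet scores (scanpy 1.11.5, 0.8% per 1000 cells) were left out as an alternative.

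UMIs were summed per type and library (at least 20 cells) and tested with edgeR 4.0.16 (R 4.3.3, filterByExpr, TMM, quasi-likelihood), with the library as a block between types and none between groups, with the Benjamini-Hochberg adjustment over all genes tested. All 9 members passed the filter in each fit. The scripts were tested on simulated data with known changes, at a dispersion of 0.05. Of 2-fold changes, 27% were recovered for PTH within bmECs and 14% by the interaction test. Of 4-fold changes, 95% and 80% were recovered, and 5.05% of the interaction calls were on unchanged genes. The dispersion was set and not estimated from these libraries, so the recovered shares do not give the power of the tests here. In the data a log2 change of -0.11 ± 0.03 was called, that of Sox18 in bmECs under PTH. With 2 libraries per group, changes of 2-fold or less can still be missed.

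Named genes are the 9 members, the 5 listed transcription factors with the largest differences, up to 4 arterial and 4 venous genes with the largest differences, and the 3 genes most correlated with each member (log2 of CPM with 1 added), of which 1 is not reported here. The clusters named beside them are described by their leading genes. Alternatives were DESeq2 1.42.0, its size factors, no filter on low counts, resolutions of 0.3 and 0.8, no integration, a gate on the rule's markers (at least 2 UMIs of 1 type and none of another), stricter cell filters (1000 to 5000 genes, under 10% mt- UMIs), at least 50 cells per sum, 6 libraries in the fit, the replicate number as a block and each library left out. Leaving out both aged libraries or the shallow mpEC cluster, and summing all ECs of a library, were added after seeing the data.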

Additional observations from a re-analysis of the deposited data

Results flagged for a closer look

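In 19 cases the change of a member from adult differed between endothelial types by the interaction test (edgeR, adjusted p under 0.05), given here as the log2 change in 1 type minus the mean change in the other 3. Of these, 13 concern the aged libraries, which stand apart from the others, and no explanation was tested for any of them.

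In juvenile bone Gata2 stood at 0.85 (adjusted p = 9.09e-08) and Sox7 at 0.76 (adjusted p = 0.0042) in bmECs, both higher in juvenile than adult libraries there. By share of cells, Gata2 in bmECs was close to haematopoietic cells, which also express it, and Sox7 to erythroid cells. The mean of the other types includes rECs, where Sox7 changed by -0.77 from 12 and 4 juvenile UMIs, against 0.08 in mpECs and -0.002 in aECs. The rise of Sox7 within bmECs was not called without juvenile replicate 2. In aged bone, bmECs stood apart with Fli1 at 0.26 (adjusted p = 0.00744), Maf at 0.90 (0.00124), Nr2f2 at 0.79 (9.59e-09), Sox17 at -0.51 (0.000324) and Sox18 at -0.47 (9.77e-10). In aged mpECs Maf stood at 0.80 (adjusted p = 0.0222) and Nr2f2 at 0.54 (0.000844), and in aged aECs Fli1 at -0.28 (0.021), Maf at 1.17 (0.00114) and Sox7 at -0.51 (0.0134). In aged rECs Maf stood at -2.87 (adjusted p = 0.00086), from 8 and 2 UMIs, Nr2f2 at -0.93 (0.0116) and Sox18 at 0.66 (1.43e-10). The values of Maf and of Nr2f2 in other types are each set against a mean that includes rECs, so the values of either gene are not independent. The change of Nr2f2 within rECs was -0.21 without adult replicate 2 and changed sign to 1.53 with cells gated by markers (adjusted p = 0.156).

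Under PTH, Sox18 stood at -0.24 in bmECs (adjusted p = 0.00963) and 0.40 in rECs (0.00175), and Sox17 at 0.29 in mpECs (0.0457). Under alendronate, Sox18 stood at 0.34 in rECs (adjusted p = 0.00449). Within rECs the change of Sox18 did not pass under PTH (0.33, adjusted p = 0.103, edgeR) or alendronate (0.10, 0.755). The interaction tests were not repeated under the alternatives.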

How the results depend on the processing

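Between types 14 to 16 of 36 tests were called under all alternatives, and 13 of the 16 calls were kept under each of 22. Within types, 9 of 15 juvenile, 14 of 23 aged, 0 of 9 PTH and 1 of 6 alendronate calls were kept under all alternatives. Juvenile calls ran from 11 to 16 and aged calls from 17 to 23. PTH calls fell from 9 to 1 with the marker gate. Alendronate calls fell from 6 to 1 with DESeq2 and to 2 with the marker gate. Leaving out 1 library gave 3 to 6 alendronate calls, with 3 without adult replicate 2 or alendronate replicate 2, and 6 to 9 PTH calls. The direction changed for Sox17 in mpECs, juvenile against adult, at 0.30 without integration, for Nr2f2 in rECs, aged against adult, at 1.53 with the marker gate, and for Maf in mpECs, alendronate against adult, at -0.0439 with that gate. The cause of these losses was not tested.

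Same-numbered libraries did not deviate together (correlations of -0.14 to 0.11, with 1 of 10 pairs over 0.1), so the numbers do not pair the libraries. With the replicate number as a block there were 15 juvenile, 22 aged, 9 PTH and 6 alendronate calls.

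The depth limits what can be said of rECs in juvenile bone and of genes at a few UMIs per sum, such as Maf in rECs. Counts and shares cover the sampled libraries, and with pooled animals the tests do not measure variation between mice.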
